A study of Mus musculus with 102 samples.

Results

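Translation factors are the proteins that bring a ribosome to the start of a message and then move it along. Their genes were taken from the deposited normalized count table as every row whose symbol begins with Eif1 to Eif6 or with Eef1 or Eef2, leaving out the eIF2 kinases (Eif2ak genes), the Eef1akmt enzymes, Eef2k and pseudogenes. This gave 57 of the 53715 genes in the raw count table, and all 57 passed the filter on low counts. They are 5 genes of the eIF1 group, 6 of eIF2, 5 of eIF2B, 14 of eIF3, 11 of eIF4, 4 that bind eIF4E, 5 of the group eIF5, eIF5A, eIF5B and eIF6, 5 of eEF1, 1 of eEF2, and Eef1aknmt. The last (Mettl13 in GENCODE) encodes a methyltransferase that modifies eEF1A and is a translation factor by name only. Eef1a2, the eEF1A of neurons and muscle, and Eif4e1b, an oocyte form of eIF4E, have symbols of the same pattern but were not among the rows of the normalized table, and held 11 and 7 counts over all samples.

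The RNA came from microglia, the resident macrophages of the nervous system, which had been sorted by flow cytometry from the lumbar spinal cord. Mice were wild type (WT), or ABC-imKO (KO), that is Abca1fl/fl Abcg1fl/fl Cx3cr1-CreERT2. In each genotype 1 group was naive (no treatment), 1 had intraperitoneal cisplatin on days 1 and 3 and intrathecal saline on day 7, and 1 had the same cisplatin and intrathecal AIBP, the apolipoprotein A-I binding protein, on day 7. There were 3 numbered samples in 5 groups and 2 (samples 7 and 9) in WT cisplatin AIBP. Cx3cr1 is expressed by other mononuclear phagocytes besides microglia. Whether the WT mice carried the Cre, how Cre was induced, the animals' age, the time of collection and whether a sample was 1 animal or a pool are not given in the sources used here. P-values therefore measure the spread between these samples, which may be technical. The naive groups had neither cisplatin nor an intrathecal injection, so the effects of both cannot be told apart in a comparison with naive.

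Samples held 45.1 to 76.6 M counts (M for mega), each the sum of 3 technical replicates on 2 lanes. The floxed genes did not pass the test between naive KO and naive WT (log2 fold change -0.30, adjusted p = 0.947 for Abca1, and -1.13, adjusted p = 0.789 for Abcg1, edgeR quasi-likelihood test), and since gene counts include exons outside the deleted ones this checks neither the deletion nor the labels. The 14 microglia markers summed to 57440 to 78120 CPM (counts per mega of the scaled library size) in the naive samples and to 37480 to 61280 in the cisplatin samples. P2ry12, a purinergic receptor of resting microglia, stood at 4323 to 7225 CPM in naive and 754 to 2584 in cisplatin samples, without overlap. The 8 monocyte markers summed to 2.91 to 65.2 CPM in naive mice, to 238, 1127 and 746 in samples 4, 5 and 6 of WT cisplatin saline, 785 to 1225 in KO cisplatin saline, 192 to 276 in the AIBP samples of WT and 273 to 821 in KO cisplatin AIBP. Ccr2, which defines classical monocytes, reached 95.3 and 62.8 CPM in samples 5 and 6 of the WT group given cisplatin and saline, and at most 10.2 in every other sample. The 6 border macrophage markers summed to 69.5 and 49.2 CPM in those 2 samples and to at most 39.2 elsewhere, with Lyve1 at 0 in all 17. The 11 proliferation markers summed to 257 to 492 CPM in naive and 492 to 1903 in cisplatin samples, and Mcm genes and Pcna held most of this. Of the list, Mcm2, Mcm4 and Mcm6 were higher without overlap (Mcm6 at most 64.64 CPM in naive and at least 74.88 in cisplatin samples). The other genes overlapped, among them Top2a, Cdk1 and Ccnb1. Mki67 was not higher, at 2.207 to 18.48 CPM in naive and 0.7957 to 15.21 in cisplatin samples. The 5 endothelial markers were lower without overlap (19.8 to 53.6 CPM in naive and 2.01 to 17.5 in cisplatin samples). The 8 neutrophil markers summed to 670 to 802 and 255 to 490 CPM, but nearly all of this was Csf3r. It held 670 of 670 CPM in WT naive sample 1 and 249 of 255 in KO cisplatin saline sample 5. Mmp8, Mmp9 and S100a8 went the other way in some cisplatin samples, with up to 12.7, 7.75 and 5.98 CPM. Their highest naive values were 0.0344, 0.0159 and 0.634 CPM. The 10 dissociation and immediate early genes summed to 17960 to 44570 CPM in WT naive, 8256 to 25070 in WT cisplatin saline and 7450 to 7586 in WT cisplatin AIBP, and to 6644 to 33200, 2824 to 11480 and 13570 to 28650 in the same order in KO. The monocyte, endothelial and neutrophil sums and P2ry12 did not overlap between naive and cisplatin samples. The microglia, border macrophage, proliferation and immediate early sums did overlap. The part of all of these in the results below was not tested. In a bulk sample, fewer cells of a type and less RNA per cell cannot be told apart.

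Translation begins when eIF2, carrying GTP and the initiator tRNA, joins the small ribosomal subunit with eIF1, eIF1A, eIF3 and eIF5. The cap-binding complex eIF4F (eIF4E, eIF4G and the helicase eIF4A) loads this assembly on the message, it scans to a start codon, and eIF5B joins the large subunit. During elongation eEF1A delivers aminoacyl-tRNA, the eEF1B complex recharges eEF1A with GTP, and eEF2 moves the ribosome by a codon. Much of the control of these steps acts on the proteins, by phosphorylation of eIF2, eEF2 and the eIF4E-binding proteins, and is not seen in RNA counts.

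In naive WT microglia the members spanned a wide range of levels per length of exon. The length is that of all annotated exons of a gene merged, which can exceed the length of its message. The order of members depends on it. In CPM per kilobase of exon, Eef1a1 stood at 375 ± 55.3 (SD, n = 3), Eif1 at 348 ± 57.4, Eif5a at 217 ± 10.9, Eef2 at 146 ± 14.8 and Eif3g at 90.5 ± 13.4. Eef1a1 and Eif1 overlapped, with samples at 332, 437 and 355 for the first and 373, 388 and 282 for the second, so their order is not beyond their spread. Eif5a (206 to 228), Eef2 (129 to 158) and Eif3g (82.4 to 106) did not overlap with one another. Eif2s3x, Eif3j1, Eif3j2, Eif5a2, Eif4ebp3 and Eef1aknmt were the low end, and Eif4ebp3 had no count in 8 of the 17 samples.

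**Figure D1:**
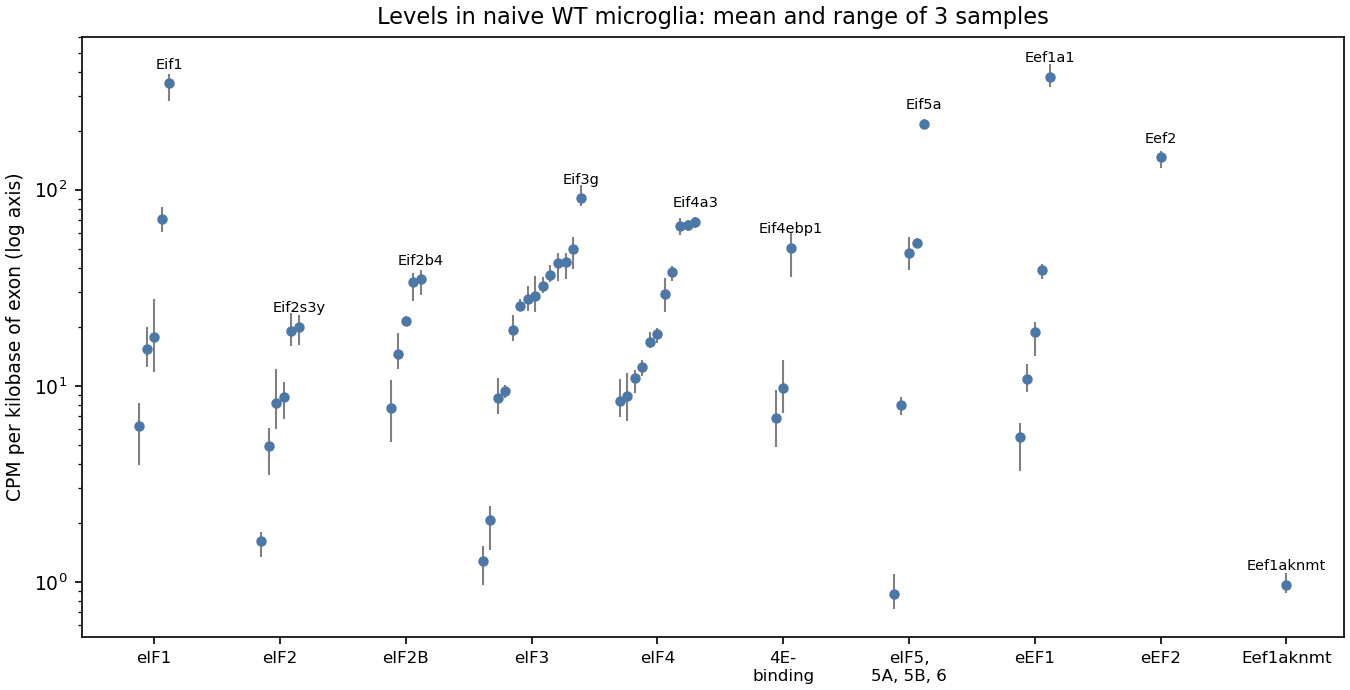
Levels of the members in the 3 naive WT samples, in CPM per kilobase of exon on a log axis, by group of factors. Points are means, lines run from the lowest to the highest sample, and the highest member of each group is named (Eif4ebp3, with a sample at 0, is left out). Eef1a1, Eif1, Eif5a and Eef2 stand above the other members.

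After cisplatin the members took a larger part of all counts. They held 0.714, 0.730 and 0.723% of the counts in WT naive and 0.722 to 0.750% in KO naive. In WT cisplatin saline they held 0.952, 1.28 and 1.06%, in WT cisplatin AIBP 1.04 and 0.995%, in KO cisplatin saline 1.09 to 1.21% and in KO cisplatin AIBP 1.02 to 1.41%. Every cisplatin sample lay above every naive sample. Without Eif5a, the member that added most, the range was 0.664 to 0.697% in naive and 0.83 to 1.14% in cisplatin samples. The 83 cytosolic ribosomal protein genes, known from an earlier account of these data to have moved, went from 0.628 to 0.85% in naive to 1.23 to 2.15% in cisplatin samples.

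**Figure D2:**
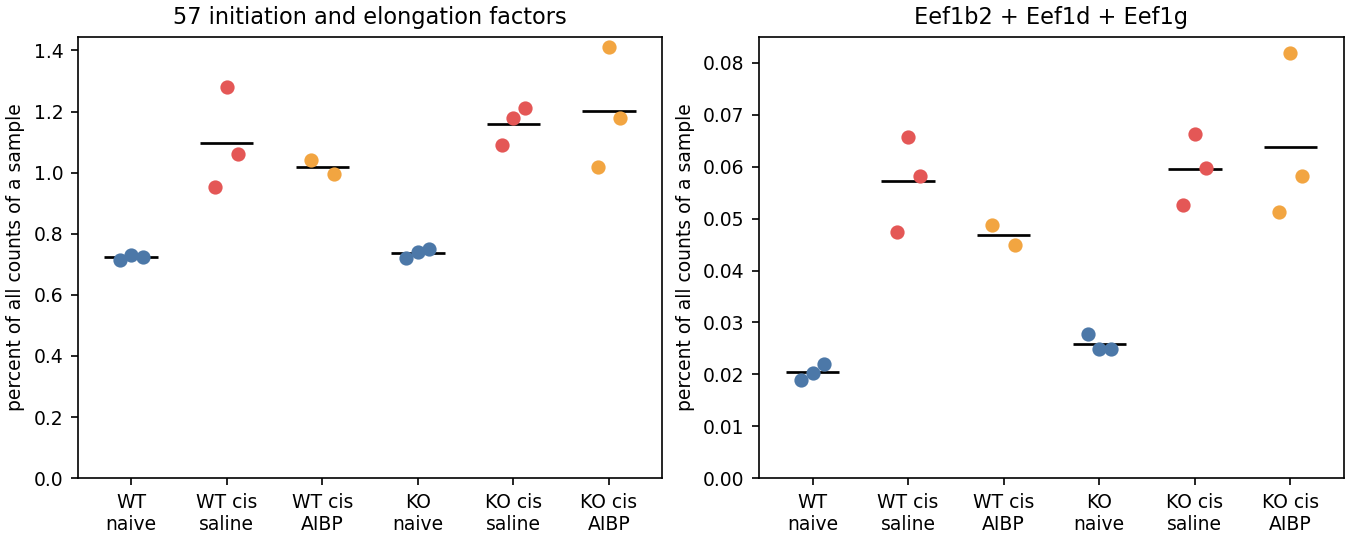
Percent of all counts of a sample that fell on the 57 members (left) and on Eef1b2, Eef1d and Eef1g (right), by group. Points are samples, bars are group means and both axes start at 0. The 6 naive samples lie at 0.714 to 0.750% on the left and all 11 cisplatin samples lie above them in both panels.

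In WT, 7 of the 57 members were higher after cisplatin and saline than in naive and 0 were lower (edgeR quasi-likelihood test, adjusted p under 0.05). Of all 20461 genes tested, 1.95% were called higher and 0.953% lower. In KO, 12 were higher and 0 lower, against 2.42% and 1.99% of all genes. The median log2 fold change of the members was 0.44 in WT and 0.40 in KO, beside -0.01 and -0.04 for all genes tested. Well-expressed genes pass more often: of the 8570 tested genes with a mean of 10 CPM or more, 369 were higher in WT and 473 in KO. Eef1b2, Eef1d, Eef1g, Eif1ax, Eif3i and Eif5a were called in both genotypes, which is 6 of the 7 in WT and 6 of the 12 in KO. Eif2s1 was called in WT alone, and Eif2s2, Eif3c, Eif3e, Eif3k, Eif3l and Eif4a1 in KO alone. In WT 19 members had all saline samples above all naive samples and 3 all below, beside 12% and 10.7% of all genes tested. In KO 28 were all above and 0 all below, beside 12% and 11.5%. The difference of the effects between genotypes was tested for each member, and 0 of 57 passed (0% of all genes). DESeq2 and limma-voom also called 0 members, beside 1.01% and 0.235% of all genes. At an unadjusted p under 0.05 there was 1 member, Eif2s3y. A share of 0.05 of genes would reach that level without any effect.

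**Figure D3:**
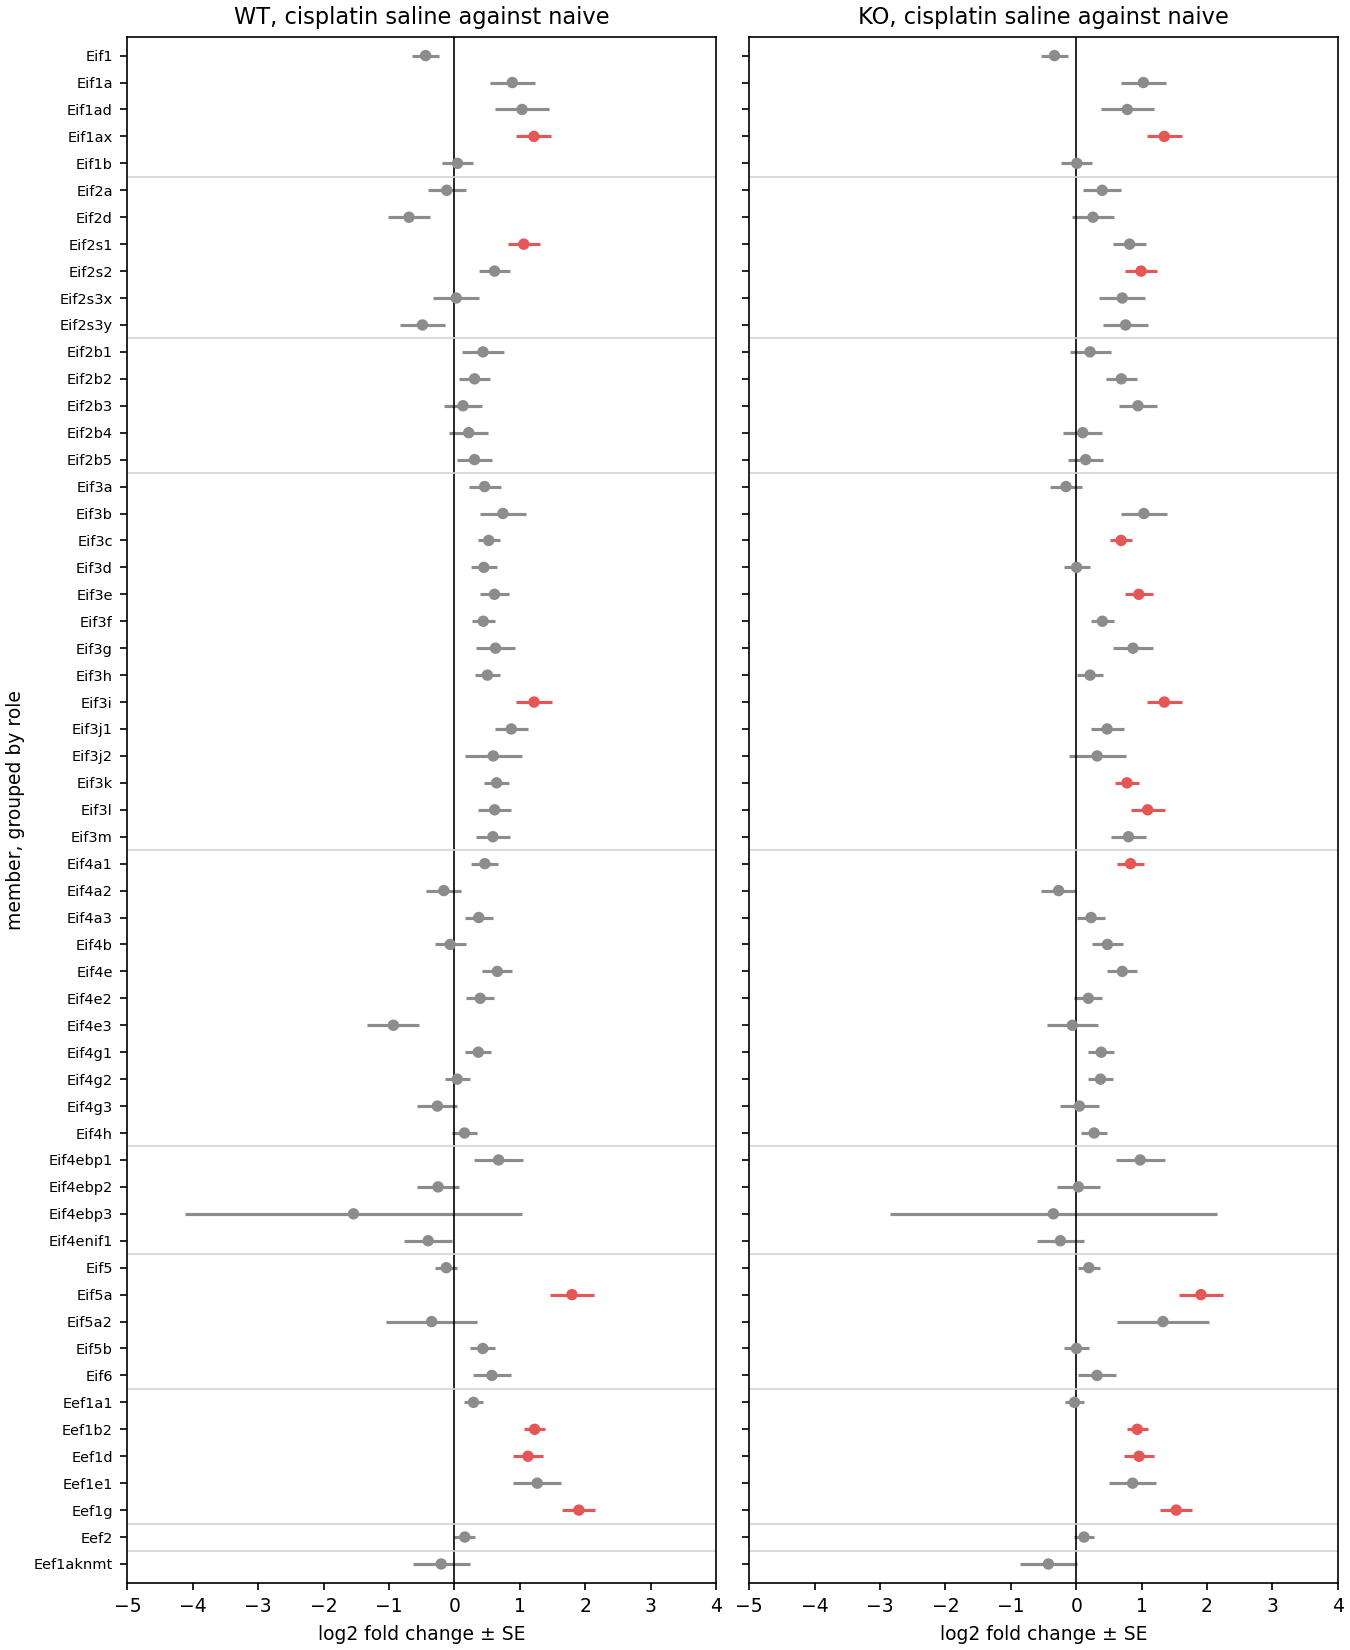
Log2 fold change ± SE of each of the 57 members, cisplatin saline against naive, in WT (left) and KO (right), with lines between the groups of factors. Red marks an adjusted p under 0.05 in the fit over all genes. The 7 and 12 red points all lie to the right of 0, and Eif4ebp3, with few counts, has the widest error.

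The 3 genes of the eEF1B complex, which recharges eEF1A with GTP, rose in both genotypes. Eef1b2 (chromosome 1, 63176825 to 63180486, GRCm38), which encodes the exchange subunit eEF1B-alpha, stood at 106, 88.3 and 100 CPM in the naive WT samples and 213, 238 and 238 in WT after cisplatin and saline. In KO it went from 115, 136 and 124 to 234, 255 and 227 CPM. The naive and cisplatin samples did not overlap in either genotype. The log2 fold change was 1.23 ± 0.16 in WT (adjusted p = 0.0016) and 0.93 ± 0.16 in KO (adjusted p = 0.0043).

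Eef1g (chromosome 19, 8967041 to 8978479), the structural gamma subunit, had the largest fold of the complex. It stood at 36.9, 53.8 and 55.1 CPM in the naive WT samples and 129, 229 and 187 in WT after cisplatin and saline, while KO had 64.6, 49 and 62.3 in naive and 136, 185 and 187 in KO cisplatin saline. The fold was 3.74 in WT and 2.89 in KO (log2 1.90 ± 0.25, adjusted p = 0.0016, and 1.53 ± 0.25, adjusted p = 0.0033). Eef1d (chromosome 15, 75894205 to 75909556), a second exchange subunit, went from 60.1, 83.9 and 65.7 to 124, 171 and 163 CPM in WT and from 81.0, 72.1 and 94.9 to 169, 171 and 143 in KO. Its log2 fold change was 1.12 ± 0.23 (adjusted p = 0.0197) and 0.96 ± 0.23 (adjusted p = 0.0303). For these 3 genes all 11 cisplatin samples lay above all 6 naive samples.

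Eef1a1, the elongation factor that this complex serves, did not pass. It stood at 828, 1090 and 884 CPM in the naive WT samples and 1244, 958 and 1227 in WT after cisplatin and saline, while KO had 1066, 1328 and 1144 in naive and 1218, 1114 and 1141 in KO cisplatin saline, so the groups overlapped in both genotypes. Its log2 fold change was 0.29 ± 0.15 in WT (adjusted p = 0.314) and -0.03 ± 0.15 in KO (adjusted p = 0.965). The value in KO lay on the other side of 0 in several alternatives. Eef2, which moves the ribosome along, stood at 430 to 524 CPM in WT naive and 486 to 602 in WT cisplatin saline, and gave 0.16 ± 0.16 and 0.12 ± 0.16 (adjusted p = 0.642 and 0.759). Per length of merged exons, the ratio of Eef1b2 to Eef1a1 was 0.0798 to 0.126 in the naive samples and 0.157 to 0.244 in the cisplatin samples, and that of Eef1g to Eef1a1 was 0.0354 to 0.0598 and 0.0996 to 0.230. Eef1e1, an auxiliary protein of the aminoacyl-tRNA synthetase complex, had log2 fold changes of 1.27 ± 0.37 and 0.86 ± 0.36 that missed the threshold (adjusted p = 0.0835 and 0.225).

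Eif5a (chromosome 11, 69916714 to 69921958) was the member with the largest gain in CPM. It encodes the hypusine-carrying factor that helps ribosomes through difficult stretches such as runs of proline. It stood at 542, 490 and 518 CPM in the naive WT samples and 1197, 2485 and 1700 in WT after cisplatin and saline, while KO had 329, 462 and 659 in naive and 1734, 1887 and 1815 in KO cisplatin saline. No sample of one group reached the other. The fold was 3.48 in WT and 3.75 in KO (log2 1.80 ± 0.33, adjusted p = 0.01, and 1.91 ± 0.33, adjusted p = 0.0047). Libraries of 1 sample also differed: the 3 technical replicates of WT cisplatin saline 4 gave 614, 1720 and 1440 CPM. The other members of the group did not pass: Eif5 (-0.12 in WT and 0.19 in KO), Eif5b (0.43 and 0.00), Eif6 (0.57 and 0.32) and the low Eif5a2 (-0.35 and 1.33). The ratio of Eif5a to Eif5, the GTPase activator of eIF2, was 3.42 to 5.85 per length in naive and 8.74 to 25.5 in cisplatin samples. Dhps and Dohh, which make hypusine, were not called in either genotype, and Dohh had a log2 fold change of 0.97 in WT (adjusted p = 0.176).

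**Figure D4:**
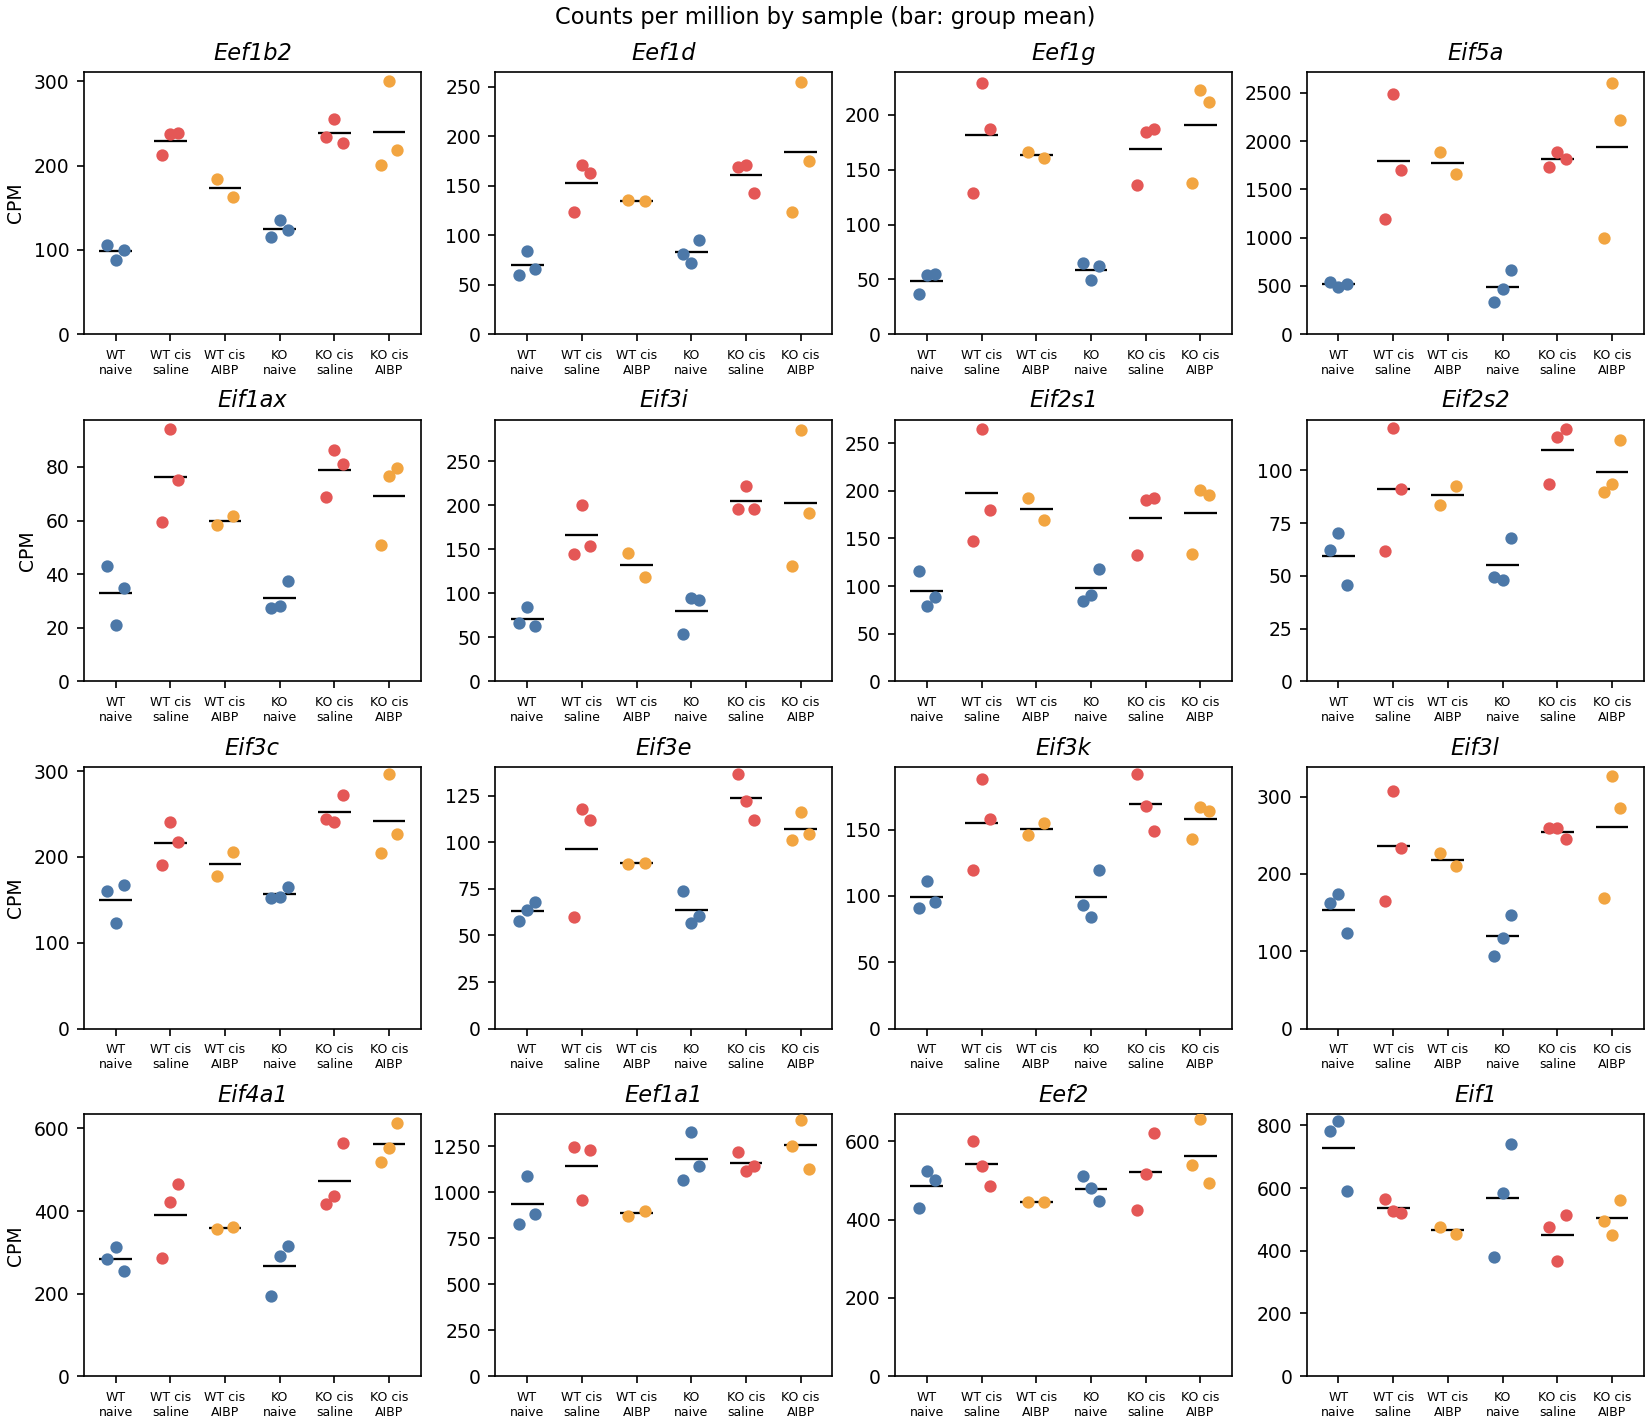
CPM of the 13 members called in at least 1 genotype, and of Eef1a1, Eef2 and Eif1, in each sample of the 6 groups, with bars at group means and axes from 0 (cis stands for cisplatin). For Eef1b2, Eef1d, Eef1g, Eif1ax, Eif3i and Eif5a each cisplatin sample lies above each naive sample, while Eef1a1 and Eef2 overlap.

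In the eIF1 group, whose proteins keep the scanning complex open until a start codon is found, Eif1ax was higher in both genotypes and Eif1 did not pass. Eif1ax, the X-linked gene of eIF1A (159372178 to 159389928), stood at 42.9, 20.9 and 34.7 CPM in the naive WT samples and 59.5, 94.0 and 75.2 in WT after cisplatin and saline. In KO it went from 27.4, 28.1 and 37.4 to 68.9, 86.3 and 81.0 CPM, again without overlap. The log2 fold changes were 1.22 ± 0.27 (adjusted p = 0.026) and 1.35 ± 0.27 (adjusted p = 0.0107). Eif1a, its autosomal copy, and Eif1ad, a relative with an eIF1A domain, had values of 0.89 and 1.03 in WT and 1.03 and 0.78 in KO that did not pass. Eif1 stood at 783, 813 and 591 CPM in the naive WT samples and 565, 526 and 521 in WT after cisplatin and saline, all below naive, but did not pass (-0.44 ± 0.21, adjusted p = 0.292), and in KO the groups overlapped (-0.33 ± 0.21, adjusted p = 0.419).

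Of the 6 genes for eIF2 and related tRNA-binding factors, Eif2s1, the alpha subunit phosphorylated in the integrated stress response, was higher in WT. The naive samples had 116, 78.9 and 88.9 CPM, and 147, 265 and 179 were measured after cisplatin and saline (1.06 ± 0.25, adjusted p = 0.0348). In KO it went from 84.2, 90.6 and 118 to 132, 191 and 193 CPM without overlap, and missed the threshold (0.82 ± 0.25, adjusted p = 0.0844). Eif2s2, the beta subunit, rose in KO from 49.6, 48.1 and 68.0 to 93.8, 116 and 120 CPM (0.99 ± 0.24, adjusted p = 0.0313), whereas in WT sample 4, at 61.6 CPM, lay within the naive range of 45.6 to 70.5. The gamma subunit has an X-linked and a Y-linked gene. Eif2s3x gave 0.03 in WT and 0.70 in KO, and Eif2s3y -0.49 and 0.75, none of them called. Eif2s3y stood at 24.6 to 119 CPM in all 17 samples, and Eif2s3x at 3.7 to 8.09. Eif2d, an alternative initiator tRNA carrier, gave -0.69 in WT and 0.26 in KO. None of the 5 subunits of eIF2B, which reloads eIF2 with GTP, was called. Their log2 fold changes ran from 0.13 to 0.44 in WT and from 0.10 to 0.94 in KO, where Eif2b3 (adjusted p = 0.096) and Eif2b2 (adjusted p = 0.125) came nearest. Eif2b1 gave 0.44 and 0.21, and Eif2b5, the catalytic subunit, 0.31 and 0.14.

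The 14 genes of eIF3, the large scaffold of the initiation complex, had a log2 fold change above 0 in 14 cases in WT and 13 in KO. Only Eif3i passed in WT, while Eif3c, Eif3e, Eif3i, Eif3k and Eif3l passed in KO. Together they held 0.120 to 0.140% of counts in the naive samples and 0.172 to 0.272% in the cisplatin samples. Eif3i (chromosome 4, 129591960 to 129600648) stood at 66.1, 85.0 and 63.1 CPM in the naive WT samples and 145, 200 and 153 in WT after cisplatin and saline (1.22 ± 0.27, adjusted p = 0.0265). In KO it went from 54.3, 94.6 and 92.1 to 196, 222 and 195 CPM (1.35 ± 0.27, adjusted p = 0.011).

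Eif3l, a peripheral subunit, stood at 94.2, 117 and 147 CPM in KO naive and 259, 260 and 246 in KO cisplatin saline (1.09 ± 0.26, adjusted p = 0.0268). Eif3e rose in KO from 73.9, 56.5 and 60.5 to 136, 122 and 112 CPM (0.96 ± 0.22, adjusted p = 0.0207). Eif3k (0.78 ± 0.19, adjusted p = 0.0285) and Eif3c, a core subunit (0.69 ± 0.17, adjusted p = 0.0299), had smaller changes, without overlap between the groups. In WT the log2 fold changes of these 4 genes were 0.61 or 0.62 for Eif3l and Eif3e, 0.64 for Eif3k (adjusted p = 0.0824) and 0.52 for Eif3c (adjusted p = 0.118). Eif3j1 gave 0.87 in WT (adjusted p = 0.0865). Eif3a, the largest core subunit, gave 0.46 in WT and -0.16 in KO, where sample 4 stood at 150 CPM and the other two at 270 and 264. Without that sample the KO value was 0.10.

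Of the 11 genes of the eIF4 group, Eif4a1, the main RNA helicase of cap-dependent initiation, was called in KO. Its KO samples had 193, 290 and 314 CPM in naive and 416, 437 and 566 after cisplatin and saline (0.83 ± 0.21, adjusted p = 0.0342). In WT, cisplatin sample 4 (286 CPM) lay within the naive range and the change was 0.47 ± 0.21 (adjusted p = 0.262). Eif4a2, its close relative, gave -0.16 and -0.27. Eif4e, the cap-binding protein, gave 0.66 in WT and 0.70 in KO (adjusted p = 0.164 and 0.111). The scaffold Eif4g1 gave 0.37 and 0.38, and Eif4g2, a relative that does not bind eIF4E, 0.04 and 0.37. Eif4b, a helper of the helicase, gave -0.06 and 0.48, and Eif4e3 -0.93 and -0.06.

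None of the 4 genes for eIF4E-binding proteins, which hold eIF4E away from eIF4G, was called. Eif4ebp1 stood at 78.4 to 134 CPM in WT naive and 114 to 240 in WT cisplatin saline (0.68 ± 0.38, adjusted p = 0.357), and gave 0.98 ± 0.38 in KO (adjusted p = 0.182). Eif4ebp2 gave -0.25 and 0.03, and Eif4enif1, which carries eIF4E into the nucleus, -0.40 and -0.24. Eif4ebp3 had between 0 and 99 counts in a sample and its fitted values are not interpretable. Eef1aknmt gave -0.20 and -0.43.

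The effects in the 2 genotypes were alike in direction for most members. Over the 57 members, 41 had a log2 fold change above 0 in both genotypes and 6 below 0 in both (Eef1aknmt, Eif1, Eif4a2, Eif4e3, Eif4ebp3 and Eif4enif1). Pearson's r between the 2 sets of log2 fold changes was 0.696, and 0.761 over the 53 members with a mean of 10 CPM or more. Members are not independent replicates, since they share the libraries and their depth. Counted over both genotypes and both intrathecal treatments, 8 members (Eef1b2, Eef1d, Eef1g, Eif1ax, Eif2s1, Eif3c, Eif3i and Eif5a) had all 11 cisplatin samples above all 6 naive samples, beside 2.89% of all genes tested, and 0 had all below, beside 1.56%.

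**Figure D5:**
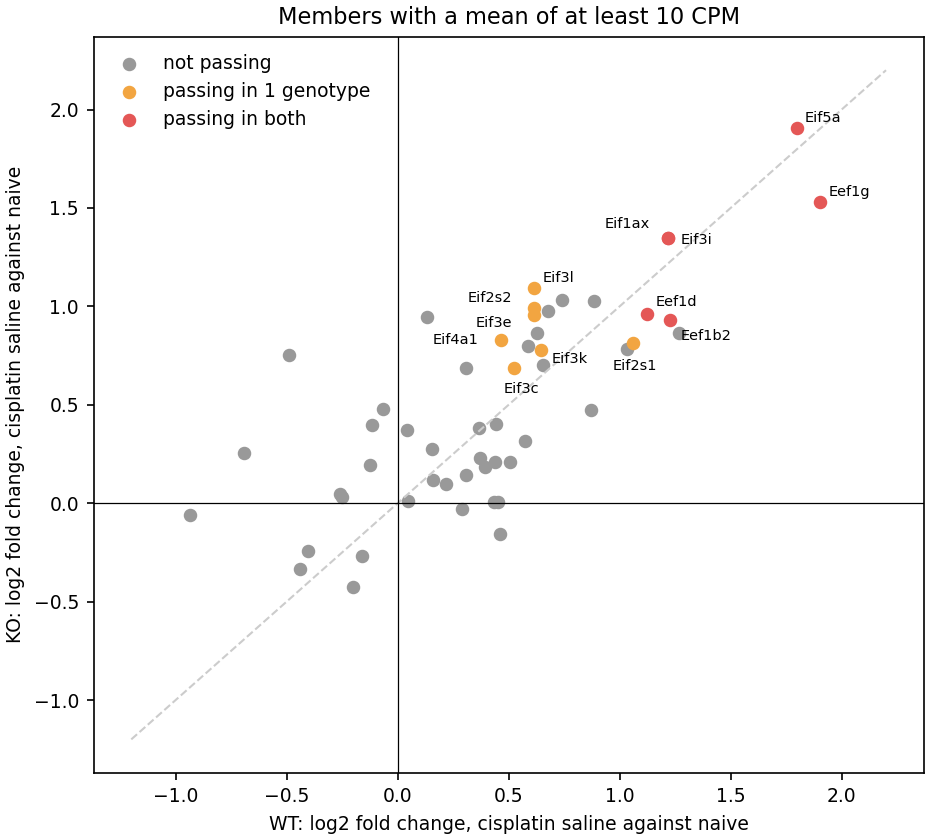
Log2 fold change, cisplatin saline against naive, in WT (horizontal) and KO (vertical) for the 53 members with a mean of at least 10 CPM, with the line of equal values dashed. Red points passed in both genotypes, orange points in 1 and grey points in neither. The 6 red points lie above 0.9 on both axes.

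The number of calls in WT depended on which samples were kept, cisplatin saline as well as naive. Samples 5 and 6 held the most Ccr2, and its part in the calls was not tested. With sample 4 as the only WT cisplatin saline sample, its spread taken from the other groups, 0 of 57 members passed (7 with all 3 samples) and the median was 0.10. Over all genes the share called higher fell with it, from 1.95% to 0.0306%. The log2 fold changes of the called members then were 1.17 for Eef1b2, 1.46 for Eef1g, 1.26 for Eif5a, 1.07 for Eif3i, 0.91 for Eif1ax, 0.87 for Eef1d and 0.69 for Eif2s1, with adjusted p of 0.134 for Eef1b2 and 0.156 or more for the others. Leaving out 1 sample at a time, the count was 2 without sample 5, 3 without sample 6, 11 without sample 4, and 3 or 4 without any 1 naive sample. The share of all genes called higher moved the same way, to 0.602%, 0.864%, 2.68% and 0.835 to 1.18%. Eef1b2 and Eef1g kept their call in all 6 of these fits, and Eif5a in 5. In KO the count was 5, 4 and 11 without naive sample 1, 2 or 3 and 7, 5 and 8 without saline sample 4, 5 or 6, with 1.03 to 2.46% of all genes called higher. Eef1b2, Eef1g, Eif3i and Eif5a kept their calls in all 6 KO fits. Eif3c kept its call in KO in none of them.

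AIBP was compared with saline in cisplatin-treated mice. In WT 0 of 57 members passed (0% of all genes), with 3 at an unadjusted p under 0.05. In KO 0 passed (0.00977% of all genes), with 1 at that level. Without any effect, a share of 0.05 of genes would reach it. DESeq2 also called 0 members in both, beside 0.531% of all genes in WT and 1% in KO. So did limma-voom on the libraries, beside 0% in WT and 0.572% in KO. The median log2 fold change of the members was -0.03 in WT and 0.01 in KO. Eef1b2 stood at 184 and 163 CPM in WT cisplatin AIBP, below the 3 saline samples (-0.41 ± 0.18, adjusted p = 0.996), and at 200, 300 and 219 in KO cisplatin AIBP, overlapping with saline (0.01 ± 0.16). Of all genes tested, 9.14% had the WT AIBP samples below all WT saline samples. Eif5a stood at 1890 and 1664 CPM in WT cisplatin AIBP and 992, 2600 and 2221 in KO cisplatin AIBP (-0.01 ± 0.36 and 0.10 ± 0.32). Eef1g gave -0.16 ± 0.27 and 0.17 ± 0.24. The difference of the AIBP effects between genotypes was called for 0 members (0% of all genes), with 3 at an unadjusted p under 0.05. DESeq2 and limma-voom called 0 members too, beside 0.779% and 0.181% of all genes.

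Set against naive, a comparison added after the data were seen, the AIBP groups had higher members too, and they share their naive samples with the saline comparisons. In WT 3 were higher and 0 lower (1.06% and 0.191% of all genes), namely Eef1b2 (0.82 ± 0.17, adjusted p = 0.0345), Eef1g (1.75 ± 0.27, adjusted p = 0.0094) and Eif5a (1.78 ± 0.36, adjusted p = 0.0271). The count fell to 0 without either AIBP sample (0.00436 and 0.086% of all genes called higher) and to 1 without any 1 naive sample (0.192 to 0.597%). In KO 8 were higher and 0 lower (1.81% and 0.87% of all genes), namely Eef1b2, Eef1d, Eef1g, Eif1ax, Eif3i, Eif3l, Eif4a1 and Eif5a, with log2 fold changes from 0.94 (Eef1b2) to 2.00 (Eif5a). That count was 3 without naive sample 1 or AIBP sample 8, 5 without naive sample 2 or AIBP sample 9, and 15 without AIBP sample 7, with 0.527 to 2.62% of all genes called higher over these 5 fits.

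KO was compared with WT within each treatment, and 0 members passed in naive (0.00489% of all genes), cisplatin saline (0.044%) or cisplatin AIBP (0%). At an unadjusted p under 0.05 there were 4, 2 and 3 members. DESeq2 called 0 members in each, beside 0.922%, 2.22% and 1.04% of all genes. On the libraries, limma-voom called 1, Eif4a1, in cisplatin AIBP (0.386% of all genes), in a fit that counted technical replicates nearly as independent. In naive, Eef1b2 was higher in each KO sample (115, 136 and 124 CPM) than in each WT sample (106, 88.3 and 100 CPM), by 0.35 ± 0.16 (adjusted p = 0.789). Of all genes tested, 5.49% had all naive KO samples above all naive WT samples. In cisplatin AIBP, Eef1a1 stood at 1254, 1395 and 1127 CPM in KO and 872 and 898 in WT (0.51 ± 0.17, adjusted p = 0.732), and Eif4a1 at 519, 553 and 613 and at 357 and 361 (0.65 ± 0.24, adjusted p = 0.732). Of all genes tested, 10.8% had all KO samples above all WT samples in that treatment. The differences of Eef1b2, Eef1a1 and Eif4a1 did not hold against the spread of the samples after adjustment.

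Many messages of the translation machinery begin with a terminal oligopyrimidine (TOP) tract through which mTORC1 controls their translation. Of the 8 members listed as TOP messages (Eef1a1, Eef1b2, Eef1d, Eef1g, Eef2, Eif3e, Eif3f and Eif3h), 3 were called higher in WT and 4 in KO, beside 1.95% and 2.42% of all genes tested. Eef1a1 and Eef2 were not among those called. The medians were 0.56 and 0.67, beside 0.40 in each genotype for the other 49 members. The list was fixed by hand, and the other 49 were not checked for TOP tracts. Of the 82 cytosolic ribosomal protein genes tested, which are TOP messages too, 61 were higher in WT and 58 in KO, with medians of 1.08 and 1.00, and 0 were lower.

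The other genes of the pathway were counted by list. Of 14 eIF2 kinases and integrated stress response genes tested, 0 were called in either genotype. At an unadjusted p under 0.05 there were 1 in WT and 5 in KO. The share of all genes at that level is not given here. In KO Atf4, the main translationally induced factor of that response, gave -0.65 (adjusted p = 0.19). Of 14 genes of the mTORC1 and MNK arm, WT had 1 higher and 2 lower. Mtor rose from 15.8 to 33.7 CPM on average (1.09 ± 0.27, adjusted p = 0.0443), Mknk1, a kinase of eIF4E, fell (-0.61 ± 0.15, adjusted p = 0.0421), and Eef2k, the kinase that inhibits eEF2, fell from 115 to 43.2 CPM (-1.41 ± 0.36, adjusted p = 0.0471). In KO Eef2k fell from 114 to 45.7 CPM (-1.32 ± 0.36, adjusted p = 0.0496) and no other gene of that list was called. Of 15 poly(A)-binding, scanning and termination partners, 3 were higher in WT: Etf1, the release factor (1.33 ± 0.27, adjusted p = 0.0179), and Mcts1 and Denr, which form a complex that recycles small subunits (0.90 ± 0.20, adjusted p = 0.0236, and 0.88 ± 0.18, adjusted p = 0.0197). None was called in KO, where Mcts1 (0.72 ± 0.20, adjusted p = 0.0503) and Denr (0.49 ± 0.18, adjusted p = 0.171) had values of the same sign. Of 13 enzymes that modify the factors 0 were called, and of 9 mitochondrial translation factors only Gfm1 in KO (1.76 ± 0.35, adjusted p = 0.0103).

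To show what lies before the starts of called members, sequences were taken from RefSeq on GRCm38.p6, in which 44 of the 57 members have an entry of 300 bases (250 before the start and 50 after it). Only the first listed start of each gene was used, and short motifs were searched on both strands. The comparison set is all 27025 genes with an entry, whether or not they were expressed here. The ETS core CCGGAAG was found in 14 of the 44 (31.8%), beside 9.12% of all 27025 promoters, and in 4 of the 9 members with an entry that were called in at least 1 genotype. The E-box CACGTG was found in 22.7% of the members and 7.24% of all promoters, the GC box GGGCGG in 75.0% and 35.9%, the TATA box TATAAA in 11.4% and 14.2%, and TGACGTCA in 2.27% and 1.88%. Of the same 9 called members, 2 held the E-box, 5 the GC box, 1 the TATA box and 0 TGACGTCA. The E-box and TGACGTCA (the cAMP response element) share the letters ACGT. A match is a description, not a site. The 4 called members with an ETS core are printed here, with Eif5a, which had the largest gain in CPM and holds neither motif in the stretch shown, and Eef1a1 and Eef2, which were not called, as 220 bases before the start and 15 from it on. Capitals mark the ETS core, on either strand, and the E-box.
Eef1b2 (chr1:63176611-63176845, plus strand): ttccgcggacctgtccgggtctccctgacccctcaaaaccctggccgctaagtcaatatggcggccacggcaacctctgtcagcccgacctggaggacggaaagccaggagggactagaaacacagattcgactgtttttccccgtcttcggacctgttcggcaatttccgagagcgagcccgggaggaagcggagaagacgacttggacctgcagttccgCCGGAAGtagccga
Eif1ax (chrX:159371958-159372192, plus strand): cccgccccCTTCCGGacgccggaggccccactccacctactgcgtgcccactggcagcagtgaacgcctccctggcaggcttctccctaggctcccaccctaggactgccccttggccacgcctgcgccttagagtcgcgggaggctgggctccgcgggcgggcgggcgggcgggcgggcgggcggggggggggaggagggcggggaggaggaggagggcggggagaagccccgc
Eif3c (chr7:126566352-126566586, minus strand): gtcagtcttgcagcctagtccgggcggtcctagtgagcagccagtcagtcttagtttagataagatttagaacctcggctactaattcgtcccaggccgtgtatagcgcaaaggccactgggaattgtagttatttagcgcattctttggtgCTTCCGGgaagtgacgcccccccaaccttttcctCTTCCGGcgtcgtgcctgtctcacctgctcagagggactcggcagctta
Eif3l (chr15:79075003-79075237, plus strand): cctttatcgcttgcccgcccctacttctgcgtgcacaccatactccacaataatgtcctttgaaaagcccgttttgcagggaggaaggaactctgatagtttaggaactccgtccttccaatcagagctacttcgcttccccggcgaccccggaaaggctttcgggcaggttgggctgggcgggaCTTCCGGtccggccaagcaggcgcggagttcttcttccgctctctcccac
Eif5a (chr11:69921944-69922178, minus strand): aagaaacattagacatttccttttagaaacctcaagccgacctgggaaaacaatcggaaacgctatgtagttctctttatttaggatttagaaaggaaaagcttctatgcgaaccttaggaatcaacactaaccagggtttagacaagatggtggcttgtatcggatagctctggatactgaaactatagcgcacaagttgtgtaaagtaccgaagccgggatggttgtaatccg
Eef1a1 (chr9:78481710-78481944, minus strand): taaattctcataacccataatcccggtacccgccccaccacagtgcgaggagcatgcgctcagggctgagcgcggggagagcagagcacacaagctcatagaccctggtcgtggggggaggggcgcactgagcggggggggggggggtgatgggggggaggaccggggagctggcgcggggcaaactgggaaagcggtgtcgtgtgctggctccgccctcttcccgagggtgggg
Eef2 (chr10:81176411-81176645, plus strand): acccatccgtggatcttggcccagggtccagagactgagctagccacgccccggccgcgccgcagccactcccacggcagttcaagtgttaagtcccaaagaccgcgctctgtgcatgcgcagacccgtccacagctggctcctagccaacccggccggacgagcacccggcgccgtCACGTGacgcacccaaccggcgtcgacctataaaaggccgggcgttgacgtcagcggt

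Eif3c holds the ETS core at 2 places, and Eef1b2 holds it at its start. In Eif5a and Eef1a1 neither motif was found, and Eef2 holds an E-box and no ETS core in this window.

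Some members share sequence with other genes, and how reads were divided among copies, and whether the strand was used, is not given in the sources used here. Eef1g matches the processed pseudogene Gm4366 (99.6% identity over 1342 bases), which held 3903 counts beside 151967 for Eef1g. Eif4a1 matches Eif4a-ps4 (99.9% over 1218 bases, 16357 beside 443477 counts) and Eif2s2 matches Gm9892 (99.5% over 992 bases, 3879 beside 94224 counts). Eif2s3x is identical to Gm2223 over 1350 bases, and Eif3j1 and Eif3j2 match each other at 99.4% over 2379 bases, so their separate values are uncertain. Eif3e shares 131 bases with Echs1 at 98.5%. Eef1d shares 277 exonic bases with Naprt on the same strand, and Eif5b shares 1643 bases with Rev1 and Eif3j1 1107 bases with Spg11 on the opposite strand.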

How the data were processed

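RNA was measured in 17 numbered samples of sorted spinal microglia, each sequenced as 3 technical replicates on 2 lanes (102 runs of paired 50-base reads, oligo(dT)-primed and amplified by PCR, per the labels' protocols). Per the submitters' processing notes, the tools were STAR 2.6.0a, DESeq2, bcl2fastq, MultiQC 1.7 and FastQC 0.11.17, and the build was GRCm38. The counter and its strand setting are not given in the sources used here. Raw counts per gene and run were deposited by the authors, and these counts were used for every test. From their normalized table only gene IDs and symbols were read.

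The 6 runs of a sample were summed (4.51 to 15.2 M counts per run, M for mega). Tests were made in edgeR 4.0.16 under R 4.3.3. Genes were filtered with filterByExpr, which left 20461, and libraries were scaled by TMM (0.885 to 1.11). A model with 1 mean per group was fitted to the 17 samples, with 11 residual degrees of freedom and a common biological coefficient of variation of 0.922. The quasi-likelihood F test was two-sided, and p-values were adjusted by Benjamini-Hochberg across the 20461 genes (threshold 0.05). Every adjusted p comes from this model unless another tool is named. CPM uses TMM-scaled library sizes, and SE is the absolute log2 fold change over the square root of F. Lengths and overlaps come from GENCODE M21 on GRCm38, and copies from blastn at 98% identity or more over at least 100 bases. In simulated data with the real means, 9 of 50 genes with a log2 fold change of 1 and 36 of 50 with 2 were called, so smaller changes are often missed.

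The members, the lists and the pathway genes were chosen with earlier results of these data known. Named were all called members, the 3 of each role with the smallest p in either cisplatin saline comparison, a fixed set of core factors, and called genes of the pathway lists. Alternatives were other scaling (RLE), filters, DESeq2 1.42.0, limma 3.58.1 (voom) on the 51 libraries, fits on only the 2 groups compared, and leaving out samples or technical replicates. Replicate numbers do not pair the samples of the 2 genotypes, as far as the labels say.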

Additional observations from a re-analysis of the deposited data

Results flagged for a closer look

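Eif2s3y, the Y-linked gene for the gamma subunit of eIF2, had values of opposite sign in the 2 genotypes, neither of which passed (log2 fold change -0.49, adjusted p = 0.466 in WT, and 0.75, adjusted p = 0.256 in KO). In WT the naive samples held 87.5, 95.2 and 67.4 CPM, and each cisplatin saline sample was lower, at 61.6, 53.9 and 62.8 CPM. In KO the naive samples had 72.0, 76.6 and 24.6 CPM, and each sample of cisplatin saline was higher, at 119, 87.9 and 85.3 CPM. Of all genes tested, 10.7% had all saline samples below naive in WT, and 12% had all above naive in KO. The log2 fold change in KO minus that in WT was 1.24 ± 0.48, with an unadjusted p = 0.0207 in the edgeR model and an adjusted p = 0.608, so the difference did not pass after adjustment. KO naive sample 3, the lowest, was also the lowest or second lowest of the 17 samples for 3 other Y-linked genes (Kdm5d 3.25, Ddx3y 26.8 and Uty 7.15 CPM).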

How the results depend on the processing

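With a stricter filter (a mean of 10 CPM in a group) 11 members were called in WT cisplatin saline against naive and 20 in KO, and in the AIBP groups against naive 9 in WT and 17 in KO, of 53 tested (7.82, 9.02, 5.38 and 7.32% of all 9413 genes tested were higher). DESeq2 called 11, 19, 9 and 16 in the same order (6.41, 6.28, 4.47 and 5.64% higher). Fits on only the 2 groups compared called 3 in WT saline and 1 in KO AIBP (0.391 and 0.288%). Without technical replicate 2 there were 4 in WT saline and 1 in WT AIBP (1.04 and 0.35%), and without WT cisplatin saline samples 5 and 6 there were 0 (0.0306%). On libraries, limma-voom called 19, 22, 10 and 17, with Eif1 lower in both WT comparisons (9.63, 12, 5.64 and 9.63% of all genes in either direction). It also called 1 (Eif4a1) in KO against WT cisplatin AIBP (0.386% of all genes). That fit had the technical replicate number as a covariate and the sample as a block. The correlation between libraries of a sample was 0.0672 in it. Libraries thus counted nearly as independent units, which technical replicates are not. With the sample number as a replicate block, 0 were called in the 3 genotype comparisons (0% of all genes in each), as without it. Same-numbered WT and KO samples did not deviate together (r from -0.176 to 0.155), which does not show whether the numbers pair samples by design.

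Leaving out 1 sample at a time gave 2 to 11 calls in WT saline, 4 to 11 in KO saline, 0 to 1 in WT AIBP and 3 to 15 in KO AIBP against naive, and 0 in every AIBP, genotype and interaction comparison. Where a group of 2 lost 1, the lone sample is assumed to vary like the other groups. Of 454 refits of called members, 325 kept the call, 129 kept the direction and missed the threshold, and 0 changed direction. Members that were not called changed sign more often: in at least 1 alternative 18 of 50 in WT saline, 15 of 45 in KO saline, 8 of 54 in WT AIBP and 11 of 49 in KO AIBP against naive, and 28 to 38 of 57 in each other comparison. Their median changed sign too, in WT AIBP against saline (-0.03, from -0.139 to 0.117), the same in KO (0.01, from -0.103 to 0.157), KO against WT in naive (-0.02, from -0.113 to 0.0751) and saline (0.07, from -0.0307 to 0.206), and the interactions of cisplatin (0.12, from -0.00296 to 0.203) and AIBP (0.08, from -0.0879 to 0.205). Of 12 members followed singly in both saline comparisons, 3 changed sign, all in KO. Eef1a1 (-0.03) gave 0.005 with the stricter filter, 0.183 without technical replicate 2, 0.0227 by limma-voom, 0.0665 without naive 2 and 0.00106 without saline 5, with a range from -0.182 to 0.183 over left-out samples or technical replicates. Eef2 (0.12) gave -0.0527 without technical replicate 1 and -0.0272 without saline 6 (range up to 0.278), and Eif3a (-0.16) gave 0.101 without saline 4 (range down to -0.293). The cause was not tested. Depth limits Eif4ebp3, Eif3j2, Eif5a2 and Eif2s3x most.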

Other observations

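The spread of the members was about as large between libraries of a sample as between samples. On the log2 CPM scale the members' median SD was 0.323 among the technical replicates of a sample and 0.298 among samples within a group (sums over 3 libraries), beside 0.498 and 0.346 for genes with a mean of 10 CPM or more.

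Eef1aknmt, the methyltransferase gene that the name rule brought in, did not follow the factors. In WT its levels were 8.57, 8.78 and 10.8 CPM without treatment, 9.2, 6.87 and 8.43 with cisplatin and saline, and 25.1 and 17.6 with cisplatin and AIBP. In KO they were 20.8, 30.8 and 11.6, then 20.2, 9.71 and 17.1, then 5.46, 16.9 and 9.23. The AIBP effect in KO minus that in WT was -1.96 ± 0.65 on the log2 scale (unadjusted p = 0.0089, adjusted p = 0.774 in the edgeR model), which did not pass. This member was singled out after its values were seen.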
